A study of Homo sapiens with 13 samples.

Results

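The peaks that polyamide 2 and polyamide 4 gave at 400 nM in H1, a long-established line of human embryonic stem cells, were set against each other. Members were all 923 peaks of the compound 2 list and all 1581 peaks of the compound 4 list, 2504 of the 6064 peaks in the 4 lists of the series. No peak was filtered out. Peaks of a list that lay within 1 kb of each other were joined, which gave 826 loci for compound 2 and 1386 for compound 4.

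COSMIC-seq was the assay: cells take up a tagged polyamide, ultraviolet light ties it to DNA, and the captured DNA is sequenced. Both groups used here were H1 cells grown in E8 medium on Matrigel and exposed to 1 compound at 400 nM for 24 h, with 2 libraries per group. The series also holds 20 nM groups of both compounds, 400 nM groups of compounds 5 and 6, and 1 input library, none of which enters the comparison. Each compound had 1 deposited 400 nM list for its 2 libraries, so the spread between libraries is unknown. No p-value was computed, and intervals are 95% binomial intervals that cover counting error over loci only.

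Polyamides are chains of N-methylpyrrole and N-methylimidazole rings that lie in the minor groove, where the order of the rings sets which base pairs are read. In a hairpin, a flexible turn folds the chain so that rings pair side by side, and an imidazole facing a pyrrole reads a G·C pair while paired pyrroles read A·T or T·A. Linear polyamides have no such turn, and beta-alanine units between their rings let the chain follow the curve of the groove. Per the structures in the labels, compound 2 is a hairpin with a gamma-aminobutyric acid turn and a chlorothiophene cap, and compound 4 is linear with beta-alanine spacers. Both carry the same linker with psoralen, which bonds to DNA under light, and biotin, which allows capture. Hairpins with the ring order of compound 2 were designed for sites with a CG step among A·T pairs, and linear chains with the ring order of compound 4 for runs of GAA triplets. No genome of the peaks' build, hg19, was used here, so peaks are given by position and cytogenetic band, and neither peak sequence nor genes at peaks were analysed.

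The compounds differed in the kind of chromosome band they occupied. Giemsa staining gives each chromosome light bands, on the whole rich in genes and early to replicate, and dark bands, on the whole poor in genes and rich in A·T pairs. In the darkest class of bands lay 201 of 826 compound 2 loci (24.3%, exact interval 21.4 to 27.4%) and 199 of 1386 compound 4 loci (14.4%, 12.6 to 16.3%). These bands make up 16.1% of the genome. Compound 2 was therefore above the genome's share and compound 4 lay just below it, with an interval that includes 16.1%. The difference was 9.98 percentage points (Newcombe interval 6.56 to 13.5).

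In Giemsa-negative bands, the lightest class, the order was turned around. They held 324 compound 2 loci (39.2%, 35.9 to 42.6%) and 666 compound 4 loci (48.1%, 45.4 to 50.7%), against 42.2% of the genome. The difference, compound 2 minus compound 4 here and throughout, was -8.83 points (-13.0 to -4.56). The grey classes between them differed less. Middle grey bands held 13.0% of compound 2 and 14.1% of compound 4 loci, and dark grey bands held 13.8% and 14%. The lightest grey bands held 5.08% and 7.22%, a difference of -2.13 points whose interval (-4.10 to -0.00812) barely leaves out 0.

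**Figure D1:**
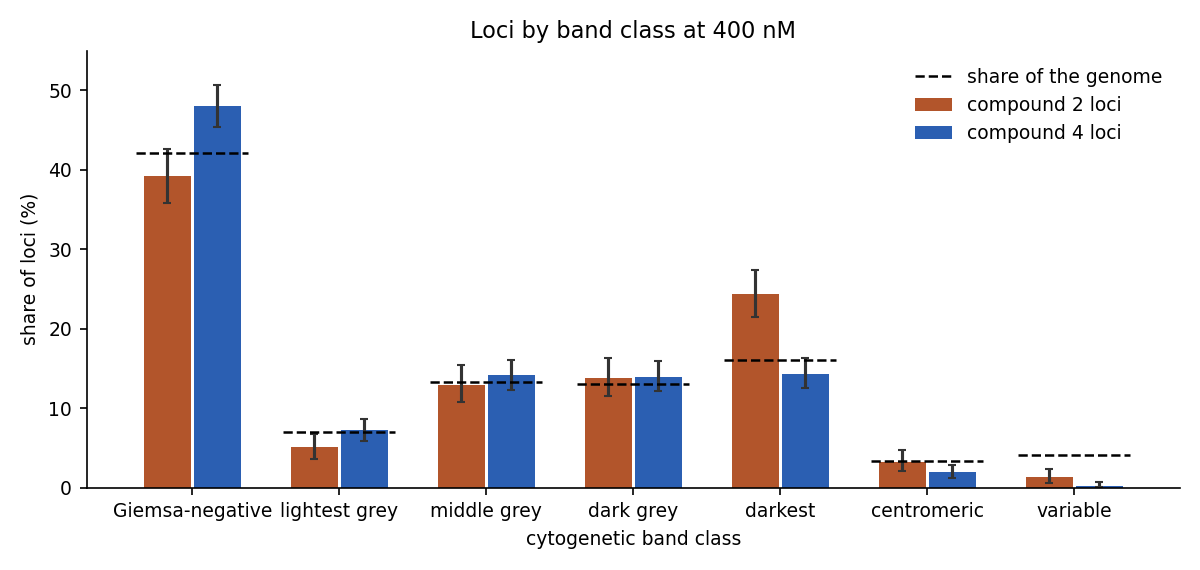
Share of loci (percent, bars from 0) in each class of cytogenetic band for compound 2 (brown) and compound 4 (blue) at 400 nM, with exact 95% binomial intervals as error bars and the share of the genome as a dashed line; stalk bands, where neither list had a locus, are left out. Compound 2 stands above the line in the darkest bands (24.3% against 16.1%) and compound 4 above it in Giemsa-negative bands (48.1% against 42.2%).

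The difference in the darkest bands recurred from chromosome to chromosome. Of the 17 autosomes that have such a band, 15 gave compound 2 a higher share of its loci there than compound 4. The other two were chromosomes 16 (12.0% of compound 2 and 17.5% of compound 4 loci) and 21 (13.3% of 15 loci and 25% of 12). Compound 2 exceeded the chromosome's own share of darkest band on 16 of the 17, and compound 4 did so on 8. On chromosome 11, 18 of 36 compound 2 loci (50%) and 18 of 60 compound 4 loci (30.0%) lay in darkest bands, which make up 27.3% of it. On chromosome 13 the numbers were 12 of 24 (50%) and 10 of 33 (30.3%), and on chromosome 1 they were 16 of 59 (27.1%) and 13 of 128 (10.2%).

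Single bands varied, and some darkest bands held more compound 4 than compound 2 loci. The darkest band with the most compound 2 loci, 10q21.1 (chromosome 10, 52900001 to 61200000), held 8 of them and 1 of compound 4. The one with the most compound 4 loci, 16q21 (chromosome 16, 57400001 to 66700000), held 10 of them and 3 of compound 2. Band 1p31.1 (chromosome 1, 69700001 to 84900000) held 6 of each, and 6p12.1 (chromosome 6, 52900001 to 57000000) held 6 of compound 4 and 0 of compound 2. Among Giemsa-negative bands, 16q12.1 (chromosome 16, 47000001 to 52600000) held 9 compound 4 loci and 1 of compound 2, and 17q21.31 (chromosome 17, 40900001 to 44900000) held 8 and 2. The Giemsa-negative bands with the most compound 2 loci, 10q11.21 and 20q11.21, held 11 and 9 of them and 2 of compound 4 each. These bands were picked for their counts, so they are a description.

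The dark-band share of compound 2 went with low peak scores. In the lower 50% of its loci by score, 123 of 413 lay in darkest bands (29.8%, 25.4 to 34.4%), and in the upper 50%, 78 of 413 did (18.9%, 15.2 to 23%). The lower part exceeded the upper by 10.9 points (5.05 to 16.6), and the interval of the upper part includes the 16.1% of the genome. For compound 4 the shares were 14.6% in the lower and 14.1% in the upper 50%. Between compounds the difference was 15.2 points in the lower parts (10.1 to 20.4) and 4.74 points in the upper parts (0.282 to 9.46). In Giemsa-negative bands the difference was -12.1 points in the lower parts (-18.0 to -6.09) and -5.54 in the upper parts, where the interval includes 0 (-11.5 to 0.523). This division by score was chosen after the values were seen. It also keeps the crowded bands described below. Their compound 2 loci had median score percentiles of 81.6, 84.1 and 84.5, and no darkest-band locus was among them. They therefore lower the darkest-band share of the upper part. Without these bands, 201 of 787 compound 2 loci lay in darkest bands (25.5%), and the division by score was not repeated.

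Placement near centromeres differed, and many of the compound 2 loci there lay in a few crowded bands. Within 1 Mb of a centromere lay 55 compound 2 loci (6.66%, 5.06 to 8.58%) and 50 compound 4 loci (3.61%, 2.69 to 4.73%). The difference was 3.05 points (1.17 to 5.14). These stretches make up 4.94% of the genome, below the compound 2 interval and above the compound 4 interval. Without the crowded bands described below, of which 3 of 4 were chosen for dense compound 2 peaks, the numbers were 17 (2.16%) and 37 (2.70%), and the difference turned to -0.541 points (-1.83 to 0.928). Within 5 Mb of a centromere lay 98 compound 2 loci (11.9%, 9.74 to 14.3%) and 138 compound 4 loci (9.96%, 8.43 to 11.7%), against 11.1% of the genome. Both intervals include that share, and the interval of the difference includes 0 (-0.733 to 4.71 points). This result at 5 Mb depended on joining and score, with values given in the closing section. The compound 2 share was higher among single peaks and in the upper 50% by score, and joining within 10 kb turned the order. The last 1 Mb of chromosome arms held 17 compound 2 loci (2.06%) and 12 compound 4 loci (0.866%), against 1.55% of the genome. That difference of 1.19 points had an interval of 0.191 to 2.46. Within 10 Mb of an end the shares were 13.2% and 10.6%, against 15.5%.

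Of 24 chromosomes, 3 had a difference in share between the compounds whose unadjusted interval leaves out 0, where 1.2 are expected if each interval misses in 5% of cases. Chromosome 10 held 81 compound 2 loci (9.81%) and 61 compound 4 loci (4.40%), and its length is 4.38% of the genome. The difference of 5.41 points (3.20 to 7.82) was 2.17 points without the crowded bands (0.234 to 4.34), with 51 and 59 loci left. Chromosome 19 held 10 compound 2 loci (1.21%) and 43 compound 4 loci (3.10%), and the difference of -1.89 points (-3.08 to -0.614) became -0.992 without the crowded bands (-2.09 to 0.252). Chromosome X held 5 compound 2 loci (0.605%, 0.197 to 1.41%) and 25 compound 4 loci (1.8%, 1.17 to 2.65%), both under its 5.02% of the genome. The difference there was -1.2 points (-2.11 to -0.208). The 5.02% is by sequence length and takes no account of copy number in the cells. Both lists also had loci on chromosome Y (4 and 8). The part of copy number in the low X shares was not tested. On the other chromosomes the interval of the difference included 0, which does not show equal shares.

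**Figure D2:**
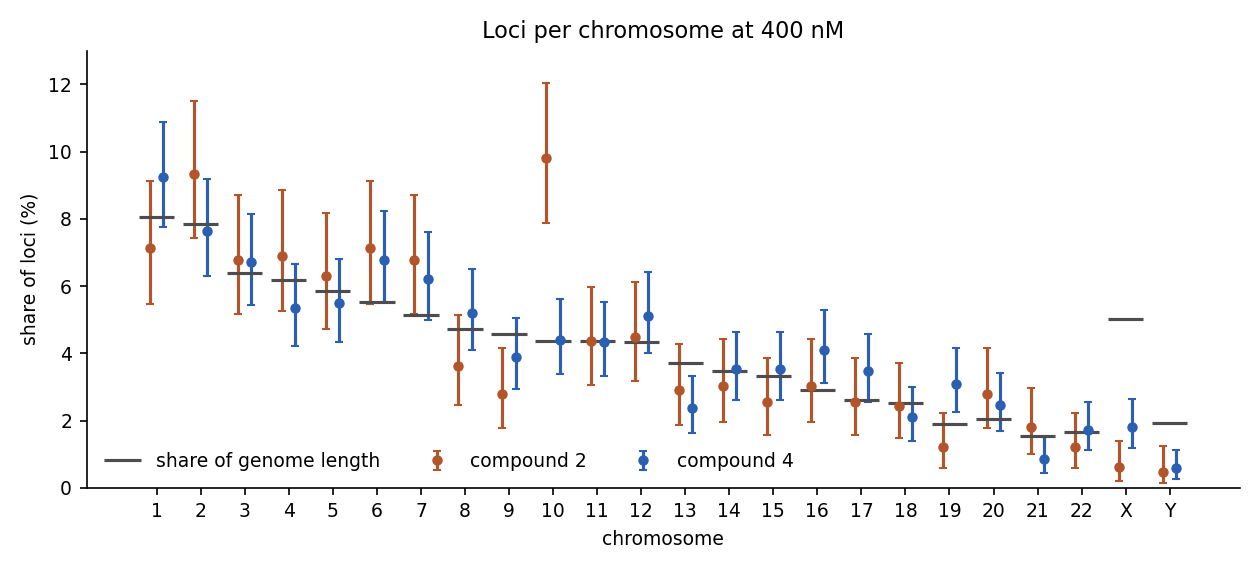
Share of loci on each chromosome (percent) for compound 2 (brown) and compound 4 (blue), with exact 95% binomial intervals, and the chromosome's share of genome length as a grey line. The line is not adjusted for copy number. Compound 2 stands at 9.81% on chromosome 10, both compounds lie under the line on chromosome X, and compound 4 lies above compound 2 on chromosome 19 (3.10% against 1.21%).

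The next question was how close the compounds came to each other where they did not share a peak. Direct overlap was rare, with 3 loci of each list. These were 0.363% of compound 2 loci (0.0750 to 1.06%) and 0.216% of compound 4 loci (0.0447 to 0.631%). A stretch of locus width overlaps a compound 4 locus over 0.0547% of the genome and a compound 2 locus over 0.0338%. Both intervals leave out these shares, on 3 loci each. Within 1 kb of the other compound lay 7 loci of each list. They were 0.847% of compound 2 loci (0.341 to 1.74%), against 0.144% of the genome. Of compound 4 loci they were 0.505% (0.203 to 1.04%), against 0.0864% of the genome. Both 1 kb intervals leave out the genome's share. Within 10 kb lay 14 loci of each list. The 14 were 1.69% of compound 2 loci (0.930 to 2.83%), against 0.935% of the genome within 10 kb of a compound 4 locus. They were 1.01% of compound 4 loci (0.553 to 1.69%), against 0.545% of the genome within 10 kb of a compound 2 locus. At 10 kb the compound 2 interval includes the genome's share, and the compound 4 interval leaves it out by little. Outside centromeric, variable and stalk bands, 0.577% of the genome lay within 10 kb of a compound 2 locus. The compound 4 interval includes that share.

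Shares at larger distances were set against the genome in the same way. Within 100 kb of a compound 4 locus lay 79 compound 2 loci (9.56%, 7.65 to 11.8%), and 8.37% of the genome did. Within 100 kb of a compound 2 locus lay 84 compound 4 loci (6.06%, 4.86 to 7.45%), against 4.96% of the genome. Both intervals include the genome's share. Within 1 Mb the shares were 59.3% of compound 2 loci (55.9 to 62.7%) against 54.3% of the genome, and 43.1% of compound 4 loci (40.4 to 45.7%) against 38.0%. Both intervals leave out the genome's share at 1 Mb. Outside centromeric, variable and stalk bands the genome's shares were 58.1% and 40.5%. Both intervals include these, that of compound 4 barely, with loci of all bands kept. The genome bins include unsequenced stretches, where no peak can lie, and their part in this difference was not tested.

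The median compound 2 locus lay 735 kb from the nearest compound 4 locus (interval 662 to 821 kb, quartiles 277 and 1570 kb), and the median genome bin 873 kb. The median compound 4 locus lay 1264 kb from the nearest compound 2 locus (1162 to 1378 kb, quartiles 497 and 2785 kb), against 1476 kb for the genome. Both genome medians lie above the intervals of the loci. Outside centromeric, variable and stalk bands the genome medians were 782 and 1344 kb, and both lie inside those intervals. Nearness showed no steady trend with score. With compound 2 loci in 4 equal classes from low to high score, 7.28, 10.6, 11.7 and 8.70% lay within 100 kb of compound 4, with median distances of 741, 748, 706 and 760 kb. For compound 4 the 4 shares were 6.65, 6.92, 5.20 and 5.48%.

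Nearness to the other compound was also read within each class of band. In darkest bands, 26 of 199 compound 4 loci lay within 100 kb of a compound 2 locus (13.1%, 8.72 to 18.6%), against 7.80% of the genome in those bands. In Giemsa-negative bands 35 of 666 did (5.26%), against 4.59%. The median compound 4 locus was 643 kb from compound 2 in darkest bands and 1435 kb in Giemsa-negative ones. In grey bands 23 of 490 did (4.69%), a share below the genome's 4.96%. From compound 2, the shares near a compound 4 locus were 23 of 201 in darkest bands (11.4%, 7.39 to 16.7%, genome 7.35%) and 34 of 324 in Giemsa-negative bands (10.5%, genome 9.69%). In grey bands it was 22 of 263 (8.37%), again below the genome's 8.91%.

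**Figure D3:**
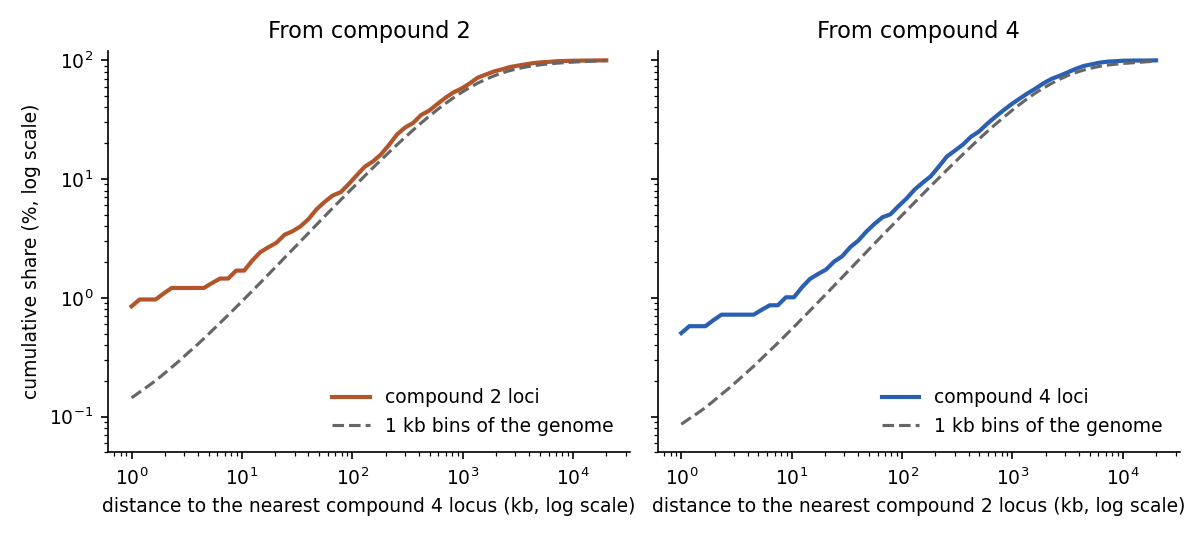
Cumulative share (percent, log scale) of loci within a given distance (kb, log scale) of the nearest locus of the other compound, from compound 2 on the left and from compound 4 on the right, with the same for 1 kb bins of the genome dashed. The curves lie above the dashed lines at 10 kb (1.69% against 0.935%, and 1.01% against 0.545%) and at 1 Mb (59.3% against 54.3%, and 43.1% against 38.0%).

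The 10 closest pairs of unlike loci varied widely in rank within their own lists. A score percentile is used for this, in which the highest-scoring locus of a list stands at 100. The median percentile over the 10 pairs was 57.4 for the compound 2 and 31.8 for the compound 4 members. In the upper 50% of their list stood 6 of the compound 2 and 4 of the compound 4 members. In 2p23.3 a compound 2 locus (chromosome 2, 24548541 to 24549116, percentile 62.7) lay wholly inside a compound 4 locus (24548514 to 24549117, percentile 20.4), with 576 bp shared. In 6q16.3 the loci shared 569 bp (chromosome 6, 102344614 to 102345189 and 102344621 to 102345224) and stood at percentiles 2.66 and 8.44. In 1q21.1 they shared 253 bp (chromosome 1, 145083824 to 145084399 and 145084147 to 145084750) at percentiles 54.6 and 61.9.

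A second pair in 1q21.1 lay nearby, with a compound 2 locus at 145068217 to 145068792 and a compound 4 locus 1676 bp before it. The pair with the strongest compound 4 member was in 2q35. There a compound 4 locus of 3 peaks, ranked 18 of 1386 (chromosome 2, 221410615 to 221411629), ended 1051 bp before a compound 2 locus ranked 167 of 826 (221412681 to 221413256). The pair with the strongest compound 2 member was in 1p36.21, where a compound 2 locus ranked 55 (chromosome 1, 15436112 to 15436891) lay 600 bp before a compound 4 locus ranked 326. The other pairs lay in 13q21.1 (513 bp apart), 3q26.1 (782 bp), 1p31.1 (932 bp) and 20q13.2 (2079 bp). In all, 4 of the 10 pairs were on chromosome 1.

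Distances from the 5 highest-scoring loci of each list to the other compound varied widely. The top compound 2 locus, in 10p11.1 (chromosome 10, 39077388 to 39081896, score 107), was 1266 kb from compound 4. Those ranked 3, 4 and 5, in 18q21.2, 8p23.1 and 9q21.12, were 2467, 1508 and 497 kb away, and the one ranked 2, in Yq12, was 35065 kb away. The top compound 4 locus, in 20p12.1 (chromosome 20, 13829027 to 13829631, score 255), was 2787 kb from compound 2. The one ranked 2, in 12q23.3 (chromosome 12, 108350375 to 108351183), had a compound 2 locus 41.0 kb away. Those ranked 3 and 4, in 1p36.22 and 12q13.13, had one at 180 and 229 kb, and the one ranked 5, in 2q31.1, at 6567 kb.

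Windows of 1 Mb gave the same picture on a coarser scale. Of 3113 windows, 674 (21.7%) held a compound 2 locus, 1050 (33.7%) a compound 4 locus and 249 both. The product of the shares gives 227 windows with both, so the count was 1.10 times that product. Windows with both were 36.9% of compound 2 and 23.7% of compound 4 windows. The rank correlation of the 2 counts over all windows, given as a description because windows share assembly gaps and band structure, was 0.0396. Windows with 2 or more loci of each compound numbered 18. The fullest of these were in 16p12.1 to 16p12.2 (chromosome 16, 24000001 to 25000000), with 2 compound 2 and 3 compound 4 loci, and in 10q22.2 (chromosome 10, 76000001 to 77000000), with 3 and 2. Those in 5q23.1 and 1q21.1 had 2 and 3, and 3 and 2 loci, and that in 6p11.2 had 2 of each.

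Local density within a list followed different patterns in the 2 compounds. Compound 2 had few crowded places, but these were dense. Of its loci, 46 (5.57%, 4.11 to 7.36%) had another compound 2 locus within 10 kb, against 42 of compound 4 (3.03%, 2.19 to 4.07%) with another compound 4 locus. The difference of 2.54 points (0.820 to 4.48) was not kept without the crowded bands, where 11 (1.40%) and 31 (2.26%) loci had such a neighbour and the difference was -0.865 points (-1.98 to 0.409). At 100 kb the shares were 11.4% (9.29 to 13.7%) and 12.6% (10.9 to 14.5%), a difference of -1.25 points (-3.96 to 1.62). As the compound 4 list is longer, its shares have a higher background: 4.96% of the genome lay within 100 kb of a compound 2 locus and 8.37% within 100 kb of a compound 4 locus.

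Joining loci within 100 kb gave 32 groups of 2 or more for compound 2, with 94 loci, and 81 groups for compound 4, with 175 loci. Pairs made up 24 of the compound 2 and 77 of the compound 4 groups. Groups of 4 or more numbered 5 and 1. The compound 2 groups of that size were 2 in 10p11.1, on chromosome 10, with 12 loci from 40 peaks between 39077388 and 39127224 and 6 loci from 11 peaks between 38790052 and 38806597, and 3 others. In 10q11.21 there were 9 loci from 15 peaks (chromosome 10, 42790814 to 42815915), in 20q11.21 6 loci from 19 peaks (chromosome 20, 29804371 to 29833368), and in 16p11.2 4 loci from 6 peaks (chromosome 16, 34183235 to 34196773). The compound 4 group was in 19q11, with 12 loci from 14 peaks (chromosome 19, 27799355 to 27888757).

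No group of 4 or more held a locus of the other compound. These groups span 13.5 to 89.4 kb each. Of the genome, 8.37% lay within 100 kb of a compound 4 locus and 4.96% within 100 kb of a compound 2 locus. Most stretches so short hold none, so the absence is a description only. The nearest compound 4 locus was 1266 and 979 kb from the groups in 10p11.1, 1310 kb from that in 10q11.21, 283 kb from that in 20q11.21 and 189 kb from that in 16p11.2. The nearest compound 2 locus was 3763 kb from the compound 4 group in 19q11. The crowded bands left out above were, of bands with 10 or more peaks, the 3 with the most compound 2 peaks per Mb and the 1 with the most compound 4 peaks per Mb. Leaving them out takes more crowded loci from compound 2 than from compound 4 by that choice, so values without them describe the remaining bands and do not test the lists. Band 10p11.1 had 8.64 compound 2 loci per Mb and 0 of compound 4. Band 10q11.21 had 2.89 and 0.526 per Mb, and band 20q11.21 had 3.33 and 0.741. In 19q11 compound 4 had 5.71 per Mb and compound 2 had 0.

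Crowded compound 2 loci scored high in their list, and crowded compound 4 loci did not. In 10p11.1, 10q11.21 and 20q11.21 the median score percentiles of compound 2 loci were 81.6, 84.1 and 84.5, and in 19q11 that of compound 4 loci was 33.1. Over whole lists, compound 2 loci with a neighbour of their own within 10 kb had a median percentile of 85.3, and such compound 4 loci 49.3. Of these compound 2 loci there were 46, and 11 without the crowded bands, so the 85.3 largely covers the same places. Neither these percentiles nor the score classes below were read without those bands. In the highest of the 4 score classes of compound 2, 20.3% had an own neighbour within 100 kb, against 7.28% in the lowest, while for compound 4 these shares were 10.1% and 14.7%.

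**Figure D4:**
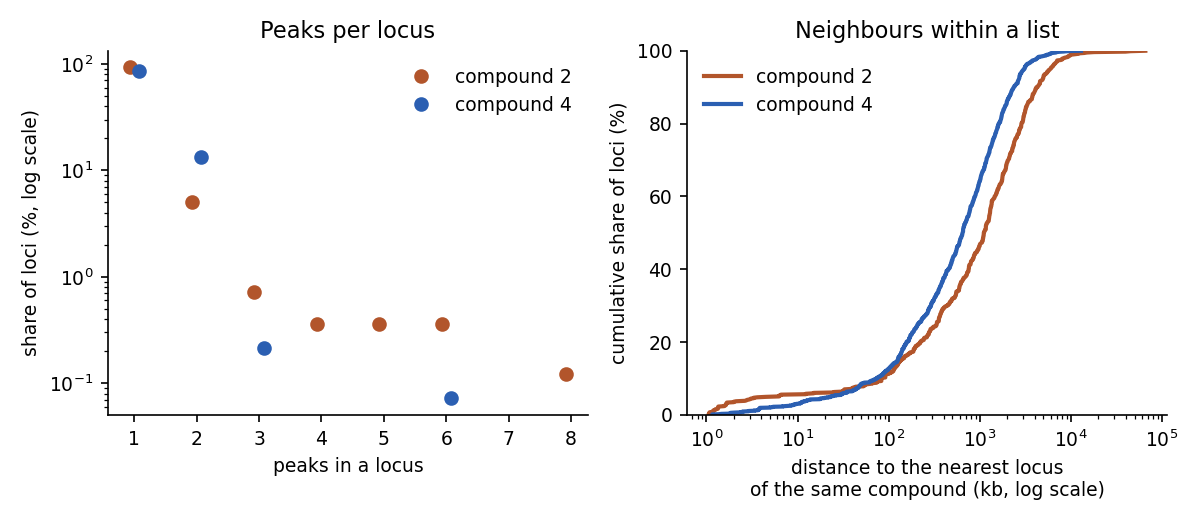
Left, share of loci (percent, log scale) by the number of peaks in a locus; right, cumulative share of loci (percent) by distance to the nearest locus of the same compound (kb, log scale), for compound 2 (brown) and compound 4 (blue). Compound 4 has more loci of 2 peaks (13.3% against 5.08%), compound 2 has loci of up to 8 peaks, and the compound 2 curve starts higher at short distances (5.57% against 3.03% at 10 kb).

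The compounds also differed in how single loci were built. Loci of 2 or more peaks were 58 of 826 for compound 2 (7.02%, 5.37 to 8.98%) and 188 of 1386 for compound 4 (13.6%, 11.8 to 15.5%), a difference of -6.54 points (-9.00 to -3.95). Nearly all of those of compound 4, 184, held exactly 2 peaks. Of compound 2, 42 held 2 peaks and 16 held 3 or more, against 4 such loci of compound 4 (1.94% and 0.289%). Without the crowded bands, loci of 3 or more peaks numbered 5 and 4, and the difference of 0.343 points had an interval of -0.240 to 1.21.

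Inside loci, neighbouring compound 4 peaks overlapped in 188 of 195 pairs (96.4%), with midpoints a median of 206 bp apart (quartiles 202 and 224). Compound 2 peaks overlapped in 52 of 97 pairs (53.6%), with midpoints 356 bp apart (quartiles 217 and 1100). As 922 of 923 compound 2 peaks were 576 bp wide and 1562 of 1581 compound 4 peaks 604 bp, overlap depends on spacing for nearly all peaks. The 19 compound 4 peaks of another width all ranked 82 or better, so width can bear on overlap among the highest-scoring peaks. The compound 2 locus with the most peaks, in 10p11.1, held 8 over 4.96 kb (chromosome 10, 39109749 to 39114708). The widest, in the same band, held 6 over 5.77 kb (39115969 to 39121736). Outside the crowded bands a locus in 1q42.11 held 6 over 4.82 kb (chromosome 1, 224199583 to 224204400). The compound 4 locus with the most peaks, in 15q22.31, held 6 peaks over 4.37 kb (chromosome 15, 65243165 to 65247536) and ranked 408.

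Loci of several peaks stood high in both lists. The median score percentile, by the highest peak of a locus, was 47.0 for compound 2 loci of 1 peak and 89.5 for those of 2 or more. For compound 4 it was 44.6 and 85.4. A locus of several peaks takes the highest of several scores, which by itself favours a higher percentile.

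The score of a peak is the authors', its scale is not given, and it was compared only within a list. Compound 2 scores ran from 23 to 107 with a median of 26.5 and quartiles of 24.3 and 30.9. Compound 4 scores ran from 24.4 to 255 with a median of 31.7 and quartiles of 26.5 and 48.7. Both lists were crowded at their lower end: 710 compound 2 peaks (76.9%) and 1174 compound 4 peaks (74.3%) lay in the lowest 10% of their list's own range. The median stood at 4.13% of the range for compound 2 and at 3.17% for compound 4, and the upper quartile at 9.43% and 10.6%. Higher up they parted, as the point that 95% of peaks do not exceed stood at 23% of the range for compound 2 and at 37.7% for compound 4. Above the middle of the range were 8 compound 2 peaks and 36 compound 4 peaks (0.867% and 2.28%).

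**Figure D5:**
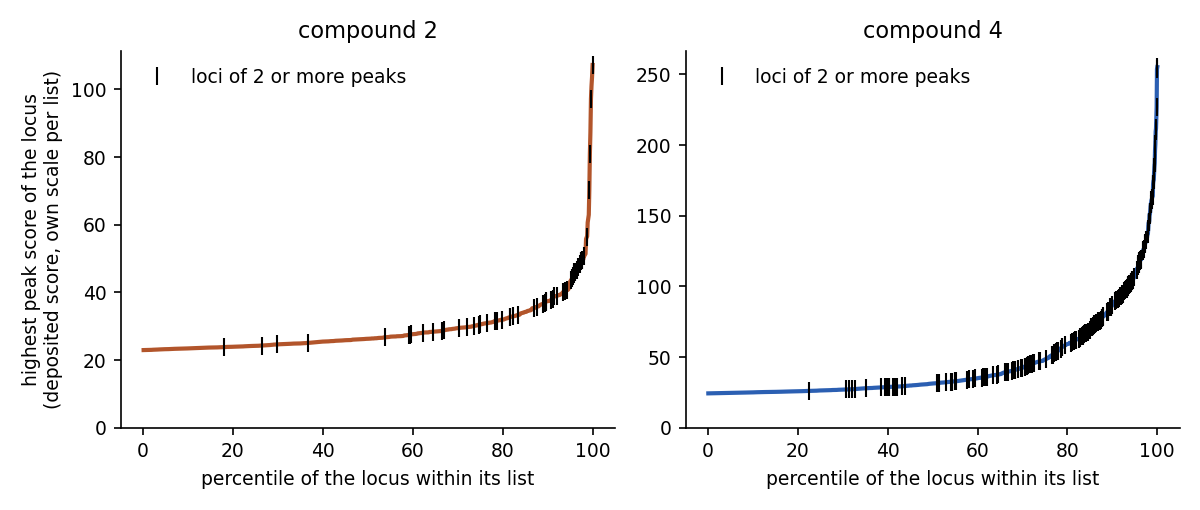
Highest peak score of each locus (deposited score, from 0, with its own axis for each list) against the percentile of the locus in its list, for compound 2 (left) and compound 4 (right); black ticks mark loci of 2 or more peaks. Both curves are flat over most loci, rise at the right end to 107 and 255, and carry most ticks toward that end (median percentiles 89.5 and 85.4).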

How the data were processed

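The authors deposited 4 peak lists with a score per peak and no header. CASAVA 1.8.2, Bowtie 1.0, HOMER and the build hg19 are named, without roles, per the submitters' processing notes. For their settings, the score's scale, the input's use and any pooling of libraries, the answer is not given in the sources used here. Read depth is unknown.

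Peaks within 1 kb were joined. Distances run from edge to edge. Background shares come from 3095665 bins of 1 kb over chromosome lengths (GenomeInfoDb 1.38.1), each bin given the median locus width, gaps included. Bands came from circlize 0.4.16. Shares have Clopper-Pearson intervals, differences Newcombe intervals, and medians order-statistic intervals, all at 95%. Functions were tested on simulated data. Python 3.11.15, numpy 2.4.6, scipy 1.17.1 and pandas 2.3.3 were used.

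Members, bands and lists were chosen with earlier results of these data known. Named were the 5 highest-scoring loci and the 5 with the most peaks of each list, the 10 closest unlike pairs, and the 5 fullest windows of 1 Mb for each list and for both. Starts are counted from 1.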

Additional observations from a re-analysis of the deposited data

How the results depend on the processing

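No paired analysis was possible because each compound has 1 list for its 2 libraries, and for the same reason no library could be left out. Over 13 results and their alternatives, 71 of 108 values stayed within the interval of the reported value (within 1.5 times for counts) and 37 did not. With single peaks in place of loci, the share with an own neighbour within 100 kb was 23.6% for compound 2 and 33.8% for compound 4. Of single peaks, 16.9% of compound 2 (14.5 to 19.5%) and 10.3% of compound 4 (8.85 to 11.9%) lay within 5 Mb of a centromere. Joining within 10 kb gave own-neighbour shares of 6.21% and 9.99% and put 8.24% of compound 2 loci within 5 Mb of a centromere.

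The upper 50% of each list by score left 402 and 676 loci and 71 windows with both. It put 4.73% of compound 2 and 2.96% of compound 4 loci within 100 kb of the other, with medians of 1655 and 3124 kb. It gave 5.92% of compound 4 loci an own neighbour. Within 5 Mb of a centromere it put 17.7% of compound 2 loci (14.1 to 21.7%) and 9.02% of compound 4 loci (6.97 to 11.4%). Here and with single peaks, the compound 2 interval leaves out the genome's 11.1% and lies above that of compound 4. With compound 4 shortened to 826 loci, 5.33% of compound 2 loci lay within 100 kb of it, the median was 1336 kb, and 8.47% of compound 4 loci had an own neighbour. Shorter lists lower such shares by construction.

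Without loci within 5 Mb of a centromere, 6.18% of compound 2 loci had an own neighbour. Without the crowded bands 7.24% did, and 7.50% of compound 2 loci lay within 5 Mb of a centromere, below the 8.91% of compound 4. That order also turned when peaks within 10 kb were joined (8.24% against 9.25%). The order of the Giemsa-negative shares, compound 4 above compound 2, was kept in each alternative run. Its interval included 0 in the upper 50% of loci by score, where the difference was -5.54 points (-11.5 to 0.523) against -8.83 over all loci.

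Other cut-offs gave other values. Within 10 kb and 1 Mb, 1.69% and 59.3% of compound 2 loci and 1.01% and 43.1% of compound 4 loci lay near the other compound, and 5.57% and 46.6%, and 3.03% and 64.1%, near their own. Within 1 and 10 Mb of a centromere lay 6.66% and 16.6% of compound 2 and 3.61% and 15.8% of compound 4 loci. With the lightest grey bands added, light bands held 44.3% and 55.3%. Windows of 100 kb gave 47 with both. Base composition and motifs, which were planned, were not analysed here for want of a genome of the build. Lists without replicates cannot show whether a difference exceeds the spread between cultures, and background shares include unsequenced stretches.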

Other observations

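The undosed lists, whose dose and libraries are not stated and which may share libraries with the 400 nM lists, gave a smaller contrast of bands. Darkest bands held 86 of 415 undosed compound 2 loci (20.7%, exact interval 16.9 to 24.9%) and 518 of 2802 undosed compound 4 loci (18.5%, 17.1 to 20.0%). The difference was 2.24 points (-1.68 to 6.62), against 9.98 points at 400 nM. Giemsa-negative bands held 39.0% and 42.5%, a difference of -3.43 points (-8.36 to 1.67). Whether the contrast differs between the pairs of lists was not tested.

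Compound 4 loci at 400 nM overlapped an undosed compound 4 locus more often where they held several peaks, in 154 of 188 (81.9%) against 553 of 1198 loci of 1 peak (46.2%). None of its 12 loci in 19q11 did, which at this number allows a share of up to 26.5%. Of the 10 closest unlike pairs, 5 compound 4 members and 0 compound 2 members overlapped an undosed peak of their own compound, and over all loci 51.0% and 12.6% did. Of compound 2 loci within 100 kb of compound 4, 4 of 79 were in the undosed compound 2 list (5.06%, 1.40 to 12.5%), against 100 of 747 of those farther away (13.4%, 11.0 to 16.0%).

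Read along the chromosomes, 945 of 2188 pairs of neighbouring loci were of unlike compounds (43.2%, 41.1 to 45.3%). The shares of both compounds on each chromosome give 46.0%. Neighbouring pairs share a locus and are not independent, and the crowded bands were kept, so the interval is a description only. The longest run of 1 compound was 30 compound 2 loci across the centromere of chromosome 10, from 10p11.1 to 10q11.21. The longest compound 4 run was 19 loci on chromosome 7.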
